A study of Mus musculus with 12 samples.

Results

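Ribosomal protein genes encode the proteins of both subunits of the cytosolic ribosome, and were followed here in neurospheres, floating cultures of neural progenitors. The cultures came from ventral midbrain of mouse embryos of the CD-1 background at E11.5. The members were the gene rows named Rpl or Rps followed by a digit, together with Rplp0, Rplp1, Rplp2 and Rpsa. Rows of the Rps6k kinases (10) and names with -ps (3) were dropped, and no member name had a row with a locus suffix. There were 86 members among 23965 gene rows, 52 with a large-subunit name and 34 with a small-subunit name. The name rule also took Rps19bp1, which encodes a binding partner of the Rps19 protein and no ribosomal protein, and left out genes such as Fau and Gnb2l1, whose products are ribosome components.

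Spheres of all 4 groups were expanded for 3 days and then held for 5 h in N2 medium with GW3965 and CT99021 together, with CT99021 alone, with GW3965 alone, or with the solvent DMSO as the control. GW3965 is an agonist of the liver X receptors (LXR), nuclear receptors of sterol metabolism. CT99021, also named CHIR99021, inhibits glycogen synthase kinase 3 (GSK3), which marks β-catenin for destruction in the absence of a Wnt signal. No transgene or deletion is named for any group, and the labels give no compound concentration. Each group had 3 RNA-seq libraries numbered 1 to 3. Nothing in the labels ties the libraries to separate cultures, so a p-value here speaks of the spread among libraries, part of which may be technical.

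A ribosome needs its proteins in nearly equal amounts, and their mRNAs are among the most abundant of growing cells. In mammals these mRNAs start at a C that is followed by an unbroken run of pyrimidines, the terminal oligopyrimidine tract, through which mTOR signalling and the RNA-binding protein Larp1 control their translation and stability. Myc raises the transcription of many of them. Neural progenitors divide rapidly and make ribosomes at a high rate.

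The start sites of 10 members show this tract and members that lack it. Each line below gives 15 bases before the annotated start and 15 bases from it, on the gene's own strand, with the pyrimidine run in capitals and lower case elsewhere. The sequences are from RefSeq and the build GRCm38.p6. The first 6 are members with abundant mRNAs, and the last 4 are rows of paralogues and of Rps19bp1, described further on. The 10 were picked by hand and do not show how common the run is among the members, which is given below. Rps27l had 2 windows, and a window with a run was printed by preference.
Rps18: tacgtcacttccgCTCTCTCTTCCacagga
Rps6: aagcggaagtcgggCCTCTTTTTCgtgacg
Rps15a: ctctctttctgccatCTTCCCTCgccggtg
Rpl13a: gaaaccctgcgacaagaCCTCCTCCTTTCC
Rplp2: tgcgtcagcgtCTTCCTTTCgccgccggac
Rps27: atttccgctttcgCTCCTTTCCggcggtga
Rpl22l1: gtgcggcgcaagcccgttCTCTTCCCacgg
Rps27l: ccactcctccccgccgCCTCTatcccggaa
Rpl7l1: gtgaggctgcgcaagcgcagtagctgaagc
Rps19bp1: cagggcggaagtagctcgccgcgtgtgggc
The windows lie at chr17:33955651-33955680 on the minus strand for Rps18, chr4:86857353-86857382 on the minus strand for Rps6, and chr7:118116133-118116162 on the minus strand for Rps15a. Those of Rpl13a (chr7:45128731-45128760, minus strand), Rplp2 (chr7:141447636-141447665, plus strand) and Rps27 (chr3:90213634-90213663, minus strand) follow. The last 4 are Rpl22l1 (chr3:28805493-28805522, plus strand), Rps27l (chr9:66946071-66946100, plus strand), Rpl7l1 (chr17:46782642-46782671, minus strand) and Rps19bp1 (chr15:80264292-80264321, minus strand). Rpl7l1 and Rps19bp1 had no such run at the annotated start.

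Of the 86 members, 65 had a window in the RefSeq promoter table, 250 bases before the start and 50 from it. A C with at least 4 pyrimidines after it, beginning within 5 bases of the annotated start, was found in 29 of the 65 (44.6%), against 21.2% of all 27025 genes in the table. In all these counts, that of the run included, a gene was counted if any of its windows matched. The string CCGGAAG, which holds the core read by Ets-family factors such as GABP, was present on either strand in 26 of the 65 members (40.0%, against 9.93% of all genes). The GC box GGGCGG was present in 41 (63.1%, against 38.2%). The E-box CACGTG, which Myc with Max can bind, was present in 6 (9.23%, against 8.09%), and TATAAA in 7 (10.8%, against 15.7%). The Tcf/Lef strings CTTTGAT and CTTTGAA were present in 0 and 1 of the 65 members (1.54% for CTTTGAA), against 4.29% and 5.93% of all genes. These are matches of letters within these windows and no measurement of binding.

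Gene counts per library ran from 9646424 to 21314093, of which the members held 173204 to 511057. A single gene, Lars2, held 7.95% of all gene counts in CT99021 replicate 1, against 0.0336% to 0.142% in each of the other 11 libraries. Libraries with the same number resembled each other across groups, and the libraries numbered 3 had lower member levels than the mean of the other 2 in each group, by a median of -0.23 to -0.29 on the log2 scale (73 to 76 of 83 members lower, with all-gene medians of -0.024 to 0.0095). A fit without the replicate number was the fixed one, and the fit with the number as a block is given beside it. "Rose" and "fell" below mean an adjusted p under 0.05 in the edgeR quasi-likelihood test with the block, adjusted over all 15608 genes tested, and changes are log2 fold changes ± SE from that fit. The SE was derived from the test, as the absolute log2 fold change divided by the square root of the F statistic. Of the 86 members, 83 passed the filter on low counts.

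Both groups that received CT99021 devoted a larger part of their mRNA counts to ribosomal proteins than the groups without it. The members took 2.66%, 2.50% and 2.28% of gene counts in the GW3965+CT99021 libraries (replicates 1, 2 and 3), against 2.23%, 2.22% and 1.80% in the GW3965 libraries. They took 2.40%, 2.56% and 2.28% in the CT99021 libraries, against 2.28%, 2.30% and 1.92% in the control libraries. The 95% Wilson interval of each share was at most 0.0087 percentage points to either side, which covers counting error only. Within a replicate number, every library with CT99021 lay above its partner without it. The GW3965+CT99021 and GW3965 libraries did not overlap, whereas the CT99021 and control libraries did, through the low CT99021 library numbered 3.

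With Lars2 left out of the totals, the share in CT99021 replicate 1 was 2.61%, and the CT99021 libraries exceeded their control partners by 14.1%, 11.1% and 18.7%. The GW3965+CT99021 libraries exceeded their GW3965 partners by 19.3%, 12.9% and 26.7%. GW3965 libraries differed from their control partners by -2.46%, -3.76% and -6.53%. The counts of large-subunit names stood to those of small-subunit names at 1.35 to 1.41 in all 12 libraries.

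**Figure D1:**
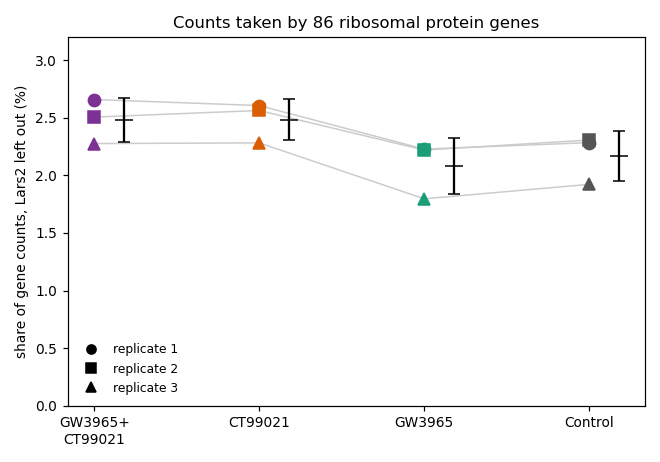
Share of gene counts taken by the 86 members (percent, y axis, Lars2 left out of the totals) in each of the 12 libraries, by group. Circles, squares and triangles are replicates 1, 2 and 3, grey lines join libraries of the same number, and the bars beside each group are the mean and SD (n = 3). Within each number the CT99021 library lies above the control library and the GW3965+CT99021 library above the GW3965 library.

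Single members showed the same direction with little exception. In CT99021 against control, the log2 fold change of all 83 tested members was above 0, with a median of 0.23 (1.17-fold) and a range of 0.089 to 0.40, while the median of all genes tested was 0.018. With the block, 52 members rose and 0 fell, where 8.23% of all genes rose and 7.59% fell. The comparison of GW3965+CT99021 with GW3965 shares no library with the first, and all 83 were again above 0, with a median of 0.30 (1.23-fold), a range of 0.12 to 0.43 and an all-gene median of 0.012. There 74 rose and 0 fell, where 11.8% of all genes rose and 8.81% fell. All 52 members that rose in the first comparison were among the 74, which is 100% of the shorter list and 70.3% of the longer. Of the genes of any kind that rose in CT99021 against control, 80.3% rose in the second comparison too.

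GW3965+CT99021 against control shares its controls with the first comparison. There the median was 0.24 and the all-gene median 0.0068, 59 members rose and 0 fell, and of all genes 11.3% rose and 8.95% fell. The 3 libraries of each group did not overlap for 30 members in CT99021 against control (7.22% of all genes did not overlap in that direction), for 43 in GW3965+CT99021 against GW3965 (8.18%) and for 37 in GW3965+CT99021 against control (9.12%). Each replicate number taken alone gave the same picture. The median log2 ratio of CT99021 over control was 0.22, 0.22 and 0.23 in numbers 1, 2 and 3, with 82, 83 and 83 of 83 members higher. That of GW3965+CT99021 over GW3965 was 0.32, 0.25 and 0.33, with 82, 80 and 83 higher.

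These calls rest on the block. Without it edgeR called 0 members in each of the 6 comparisons, where 0.0577% of all genes were called in CT99021 against control, 0.0769% in GW3965+CT99021 against GW3965, 0.115% in GW3965+CT99021 against control and 0% in the other 3. The lowest adjusted p without the block in those comparisons were 0.293, 0.125 and 0.148, all for Rps20, and 16, 41 and 26 members had an unadjusted p under 0.05, where 9.70%, 11.3% and 11.96% of all genes did. DESeq2 without the block called 7, 19 and 9 members, where it called 2.06%, 3% and 3.41% of all genes. The counts with the block also depended on single libraries. In CT99021 against control, leaving out control replicate 1, 2 or 3 left 5, 5 and 26 members that rose. Leaving out CT99021 replicate 1 or 2 left 15 and 16, and leaving out GW3965 replicate 1 or 2 left 34 and 33. For GW3965+CT99021 against control, 14, 18 and 36 rose with control replicate 1, 2 or 3 left out, 34 with GW3965+CT99021 replicate 1 left out and 36 with GW3965+CT99021 replicate 3 left out. With GW3965 replicate 1 left out, 43 rose in GW3965+CT99021 against GW3965. The share of all genes called with these libraries left out is not given here. From these member counts alone, a general loss of calls cannot be told from a loss among the members. The medians moved little when a library was left out, between 0.22 and 0.23 in CT99021 against control, 0.22 and 0.26 in GW3965+CT99021 against control, and 0.26 and 0.32 in GW3965+CT99021 against GW3965.

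**Figure D2:**
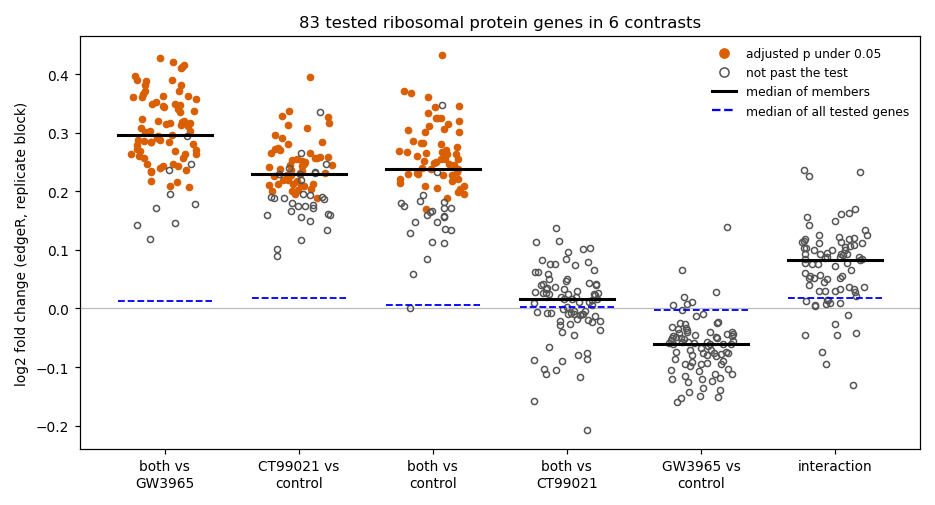
Log2 fold change of each of the 83 tested members (y axis) in the 6 comparisons (x axis), from edgeR with replicate number as a block; filled points have an adjusted p under 0.05, black bars are the median of the members and dashed blue bars the median of all 15608 genes tested. All points lie above 0 in the 3 comparisons of a group with CT99021 against a group without it, and none is filled in the other 3.

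Large-subunit and small-subunit members had similar medians. In CT99021 against control the median log2 fold change was 0.23 for 49 tested large-subunit names and 0.23 for 34 small-subunit names, and 29 and 23 of them rose. With GW3965 in both groups (GW3965+CT99021 against GW3965) the medians were 0.29 and 0.32, and 45 and 29 rose. Members with the pyrimidine run at the start (29) and without it (33) had medians of 0.24 and 0.23 in CT99021 against control, where 17 and 26 rose. In GW3965+CT99021 against GW3965 the medians were 0.29 and 0.31, and 25 and 31 rose. The difference between members with and without the run was not tested. The run was scored on the annotated start, and the start used in these cells was not measured.

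Rpl13, a protein of the large subunit, had the largest change in CT99021 against control. It stood at 381, 386 and 261 CPM (gene counts scaled to a common library size) in the CT99021 libraries, against 299, 274 and 207 CPM in the control libraries, a log2 fold change of 0.40 ± 0.064 (edgeR adjusted p = 0.00413). The third library of each group was low, so the groups overlapped, but each CT99021 library was above the control of its number. With both compounds Rpl13 reached 364, 307 and 248 CPM, against 292, 273 and 201 CPM with GW3965 alone, a smaller log2 fold change of 0.26 ± 0.064 (adjusted p = 0.017).

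Rpl13a, another large-subunit protein, is known in human cells to leave the ribosome after interferon-gamma signalling and to silence the translation of inflammatory mRNAs. It had 383, 411 and 417 CPM in the CT99021 libraries, against 296, 327 and 343 CPM in the control libraries (0.33 ± 0.053, adjusted p = 0.00408). Under GW3965 the difference was as clear, with 380.5, 432 and 428 CPM in the GW3965+CT99021 libraries, against 288, 321 and 323 CPM in the GW3965 libraries (0.41 ± 0.053, adjusted p = 0.00134). The groups did not overlap in either comparison. Rpl13a is listed on chromosome 7, and its run of 14 pyrimidines begins in the start region printed above and ends beyond it.

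Rpl10a, which lies in the large subunit beside the exit site for transfer RNA, had 357, 348 and 292 CPM in the CT99021 libraries, against 276, 289.9 and 224 CPM in the control libraries. Its log2 fold change was 0.34 ± 0.058 (adjusted p = 0.00546), and all CT99021 libraries exceeded all control libraries.

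Among small-subunit members, Rps20 changed most under GW3965. Rps20 had 285, 295 and 276 CPM in the GW3965+CT99021 libraries, against 216, 221 and 199.6 CPM in the GW3965 libraries, with no overlap and a log2 fold change of 0.43 ± 0.055 (adjusted p = 0.00134). It also had 287, 277 and 259 CPM in the CT99021 libraries, against 223, 221 and 217 CPM in the control libraries (0.31 ± 0.054, adjusted p = 0.00592). All 6 libraries with CT99021 lay above all 6 without it.

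Rps15a had 292, 272 and 254 CPM in the CT99021 libraries, against 213, 223 and 216 CPM in the control libraries (0.33 ± 0.072, adjusted p = 0.0154). With both compounds it had 259, 309 and 274 CPM, against 221, 222 and 213 CPM with GW3965 (0.36 ± 0.072, adjusted p = 0.00815). The control and GW3965 libraries were tightly grouped and every library with CT99021 lay above them.

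Rplp0, Rplp1 and Rplp2 form the stalk of the large subunit, to which the translation GTPases bind. Rplp2 had 144, 171 and 144 CPM in the GW3965+CT99021 libraries, against 114, 113 and 115 CPM in the GW3965 libraries (0.42 ± 0.073, adjusted p = 0.00425). The CT99021 libraries had 136, 139 and 142 CPM, against 119, 119 and 128 CPM in the control libraries. The CT99021 and control libraries did not overlap either, yet the log2 fold change of 0.19 ± 0.073 did not pass the test (adjusted p = 0.109).

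Rplp1 rose in both comparisons, with 438, 429 and 314 CPM in the GW3965+CT99021 libraries, against 329.9, 325 and 232 CPM in the GW3965 libraries (0.42 ± 0.062, adjusted p = 0.00226). It had 408, 424 and 334 CPM in the CT99021 libraries, against 359, 346 and 279.8 CPM in the control libraries (0.25 ± 0.062, adjusted p = 0.0259). Rplp0, at a higher count than most genes, had 1098, 1019.9 and 842 CPM with both compounds, against 862, 845 and 681 CPM with GW3965 (0.31 ± 0.054, adjusted p = 0.00425). Its change in CT99021 against control was 0.20 ± 0.054 (adjusted p = 0.0349). There were 19 alternative fits with the block (other scalings, no filter, DESeq2 or left-out libraries). In CT99021 against control Rplp1 passed in 11 of them and Rplp0 in 8. For Rplp0 and Rplp1 the groups overlapped because the third libraries were low.

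**Figure D3:**
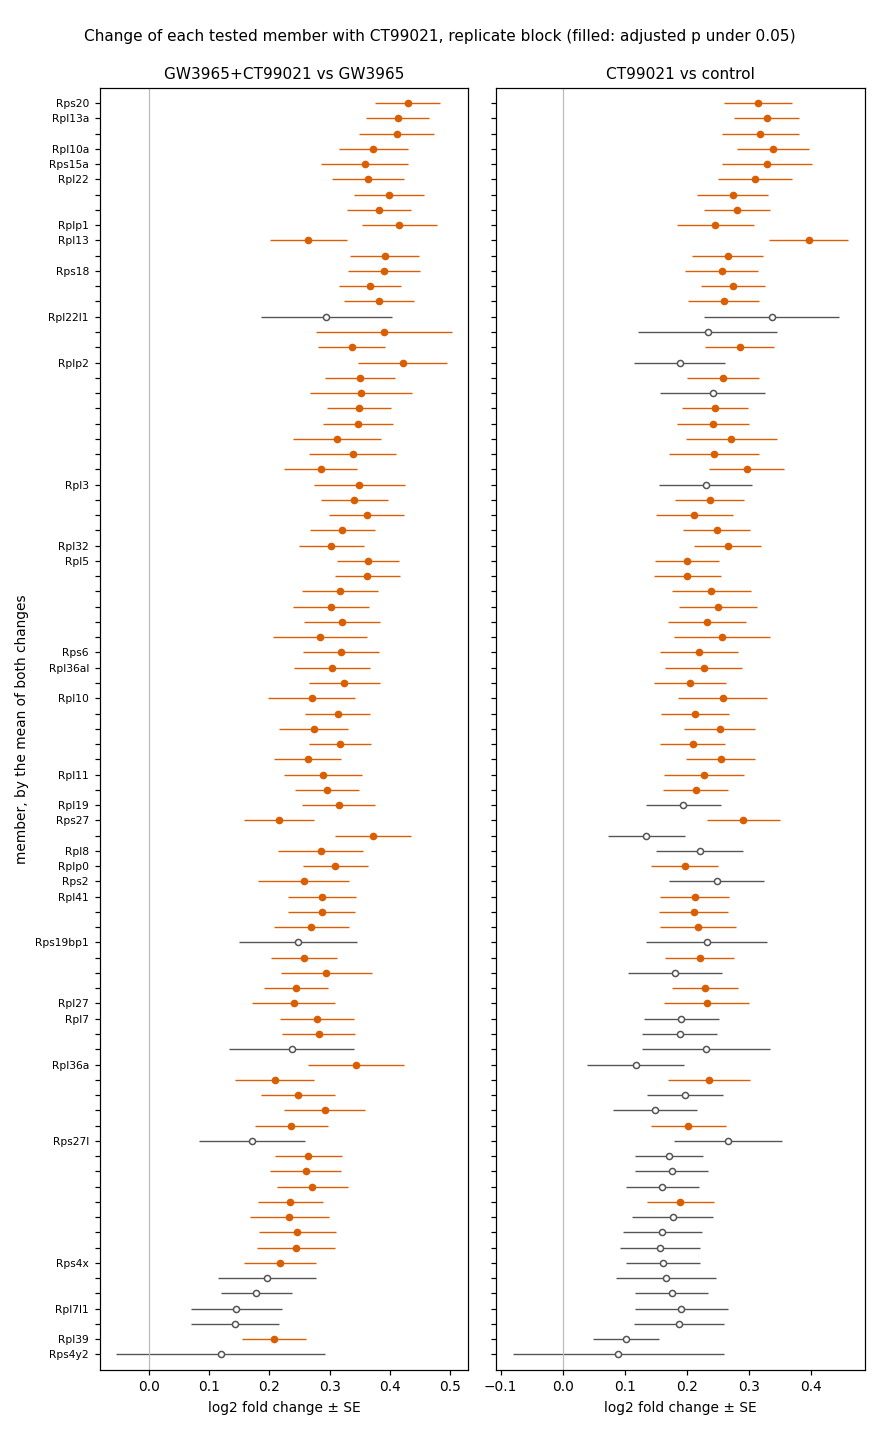
Log2 fold change (x axis, points) with its SE (lines) of each of the 83 tested members (rows) in GW3965+CT99021 against GW3965 (left) and CT99021 against control (right), from edgeR with replicate number as a block. Filled points are the 74 and 52 members with an adjusted p under 0.05, and members are ordered by the mean of both changes, with names for those the naming rule took. Every point lies above 0, and Rps4y2, in the bottom row, has a wide error.

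Across the 83 members the size of the change in CT99021 against control and in GW3965+CT99021 against GW3965 correlated with r = 0.43. The points are genes, which are not independent replicates, and all 12 libraries share the block terms of the same fit. Members near the top in both comparisons were Rps20, Rpl13a, Rpl10a and Rps15a, and those near the bottom in both were Rps4y2 and Rpl39.

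Members often used as reference genes for quantitative PCR were not constant. Beside Rplp0 and Rpl13a, Rps18 had 229.7, 216 and 188 CPM in the GW3965+CT99021 libraries, against 176, 175 and 134 CPM in the GW3965 libraries (0.39 ± 0.059, adjusted p = 0.00242). Rpl32 had 340.3, 338 and 259 CPM in the CT99021 libraries, against 278, 279 and 221 CPM in the control libraries (0.27 ± 0.054, adjusted p = 0.0114). All 6 of these genes, with Rpl19 and Rpl27, rose in GW3965+CT99021 against GW3965. In CT99021 against control 5 rose, and Rpl19, at 0.19 ± 0.06, had an adjusted p of 0.0543. These calls varied over the 19 alternative fits. In CT99021 against control Rpl13a passed in 19, Rpl32 in 15, Rps18 in 13, Rplp0 in 8, Rpl27 in 4 and Rpl19 in 2. In GW3965+CT99021 against GW3965 Rpl27 passed in 6 and each of the others in 19.

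Rps6, the small-subunit protein that S6 kinases phosphorylate downstream of mTOR, had 639.6, 603 and 535 CPM with both compounds, against 495, 533 and 403 CPM with GW3965, and did not overlap between them (0.32 ± 0.063, adjusted p = 0.00702). Its change in CT99021 against control was 0.22 ± 0.063 (adjusted p = 0.0406). Rpl5 and Rpl11, which in free form bind Mdm2 and so stabilise p53, rose in both comparisons. Rpl5 had 592, 651 and 557 CPM with both compounds, against 465, 496 and 437 CPM with GW3965 (0.36 ± 0.052, adjusted p = 0.00192). For Rpl11 the log2 fold change was 0.29 ± 0.065 in GW3965+CT99021 against GW3965 (adjusted p = 0.0126) and 0.23 ± 0.065 in CT99021 against control (adjusted p = 0.0398). The calls in CT99021 against control were not firm. Over the 19 alternative fits Rpl5 passed there in 9, Rps6 in 7 and Rpl11 in 6.

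Rpl10, which is X-linked and completes the large subunit as it matures, rose in both comparisons, by 0.27 ± 0.071 under GW3965 (adjusted p = 0.0248) and by 0.26 ± 0.071 without it (adjusted p = 0.0365). Of the 19 alternative fits, Rpl10 passed in 11 under GW3965 and in 7 without it. Rps2, at the mRNA entrance of the small subunit, showed how strongly replicate number weighed on some members. It had 888, 926 and 523 CPM in the CT99021 libraries, against 785, 737 and 446 CPM in the control libraries. The libraries numbered 3 lay far below the others in both groups, and the log2 fold change of 0.25 ± 0.076 had an adjusted p of 0.0515.

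GW3965 changed no member past the test. Against control, 76 of 83 log2 fold changes were below 0, with a median of -0.060 (0.959-fold) and an all-gene median of -0.0032, and 71 of 83 were below 0 in each of the 3 replicate numbers taken alone. With the block 0 members passed the test in edgeR (0.0192% of all genes did), 5 of 83 had an unadjusted p under 0.05, where 2.47% of all genes did, and DESeq2 with the block called 0. These 5 were Rplp0, Rplp1, Rpl19, Rps14 and Rps16, of which Rps14 and Rps16 were named after their values were seen. Without the block the counts were 0 at both thresholds in edgeR, and DESeq2 called 0.

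Rps14, a small-subunit protein, had 247, 242 and 239 CPM in the GW3965 libraries, against 263, 269 and 277 CPM in the control libraries (-0.15 ± 0.062, adjusted p = 0.959). It was one of 3 members, Rplp2 among them, whose GW3965 libraries all lay below all control libraries, where 1.51% of all genes did.

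Adding GW3965 to CT99021 changed no member past the test. In GW3965+CT99021 against CT99021 the median log2 fold change was 0.015 (all genes 0.0029), 48 members lay above 0 and 35 below, and 0 passed the test in edgeR with the block (0.0192% of all genes did). The median was -0.010 without CT99021 replicate 1. With all libraries 2 members had an unadjusted p under 0.05, where 6.51% of all genes did, Rpl13 at -0.16 ± 0.064 and Rps27l at -0.21 ± 0.087, and DESeq2 with the block called 0. The interaction, which asks whether CT99021 acts by a different log2 amount with and without GW3965, had a median of 0.082 (all genes 0.018), and 75 of 83 members were above 0. Taken alone, replicate numbers 1, 2 and 3 gave medians of 0.098, 0.027 and 0.10, with 69, 50 and 72 of 83 members above 0, and without GW3965 replicate 3 the median was 0.035. In edgeR with the block 0 members passed (0% of all genes did), 3 had an unadjusted p under 0.05 (Rps14, Rpl5 and Rplp2), where 3.34% of all genes did, and DESeq2 with the block called 0. The count of members that rose was larger with GW3965 present, but no member's change differed past the test between the 2 settings.

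Levels were compared between genes as CPM per kilobase of the listed transcript length, which ran from 427 to 5234 bases for the members. The median tested member stood at 296 CPM per kilobase, against 8.60 over all genes tested, and 80 of the 86 members lay above the 90th percentile of the genes tested. Rpl41, which encodes the smallest protein of the ribosome, was highest, at 833 ± 129 CPM per kilobase with both compounds, 853 ± 89.0 with CT99021, 681 ± 90.2 with GW3965 and 737 ± 81.1 in the control (SD, n = 3). Rps4x, Rps2, Rplp0 and Rpl8 followed, and in the control they stood at 656 ± 132, 599 ± 167, 599.7 ± 64.4 and 597 ± 122 CPM per kilobase. The SDs include the difference between replicate numbers, which these 4 neighbours share, so they do not show whether the genes differ. Their order was not tested.

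At the low end of the tested members stood Rps4y2, with 6.38 ± 1.92 CPM per kilobase with both compounds, 6.89 ± 2.85 with CT99021, 5.83 ± 1.76 with GW3965 and 6.60 ± 2.97 in the control. Rps19bp1 and Rpl7l1 came next, at 21.1 ± 6.27 and 36.7 ± 8.54 CPM per kilobase in the control. Rps15a appears low on this scale, at 41.5 ± 0.935 in the control, because its listed length is 5234 bases. The median listed length was 806.5 bases for the members and 2963 for all genes tested.

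**Figure D4:**
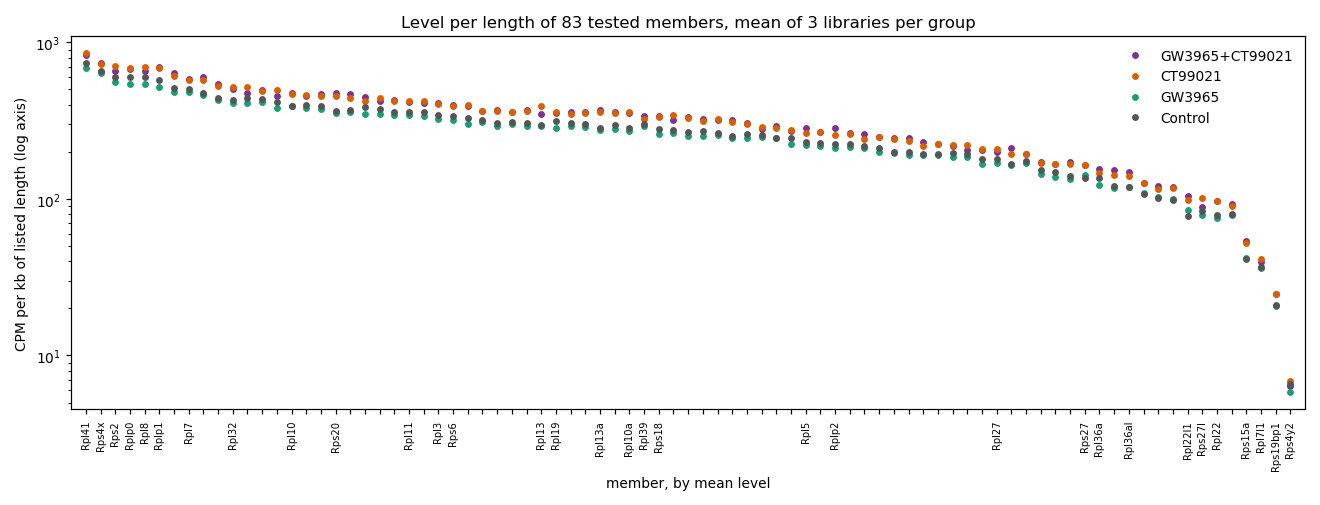
Mean level of the 83 tested members in each group (3 libraries each), in CPM per kilobase of listed transcript length on a log axis, ordered by the mean level over all libraries, with names for those the naming rule took. The members span from Rpl41, at 681 or more in each group, to Rps4y2, at 6.89 or less in each group, and the points with CT99021 lie above those without it for nearly all members.

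Several members are paralogues of another member, and each was set beside its parent. Rpl22l1 and Rpl22 encode related proteins of the large subunit, and the Rpl22 protein is known to repress its paralogue. Rpl22l1 had 57.9, 55.9 and 67.4 CPM with both compounds and 59.1, 53.6 and 56.7 CPM with CT99021, against 46.0, 49.7 and 38.2 CPM in the control. It rose in GW3965+CT99021 against control, by 0.43 ± 0.11 (adjusted p = 0.0203), the largest change of a member in that comparison. In CT99021 against control its log2 fold change was 0.34 ± 0.11 (adjusted p = 0.0612), although the groups did not overlap.

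Its parent Rpl22 had 204, 223 and 195 CPM with both compounds and 208, 237 and 181 CPM with CT99021, against 161, 184 and 159.6 CPM in the control. Rpl22 rose in both comparisons with the control, by 0.31 ± 0.06 (adjusted p = 0.00738) and 0.31 ± 0.06 (adjusted p = 0.00925). Paralogue and parent thus moved in the same direction.

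Rps27l, a p53-inducible paralogue of Rps27, had 53.8, 57.6 and 38.0 CPM with both compounds, 61.9, 61.9 and 47.7 CPM with CT99021 and 50.1, 49.6 and 33.0 CPM with GW3965, against 47.6, 52.3 and 42.3 CPM in the control. It passed the test in no comparison, with 0.27 ± 0.086 in CT99021 against control (adjusted p = 0.062) and 0.058 ± 0.087 in GW3965+CT99021 against control (adjusted p = 0.665). In CT99021 against control it passed in 4 of the 19 alternative fits. Rps27 itself had 105, 117 and 112 CPM with both compounds and 110.4, 108 and 117 CPM with CT99021, against 89.6, 91.5 and 93.3 CPM in the control. It rose against control in both groups, by 0.28 ± 0.059 (adjusted p = 0.00946) and 0.29 ± 0.059 (adjusted p = 0.0108), with no overlap. The difference in change between a paralogue and its parent was not tested.

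Rpl7l1, whose human counterpart acts in ribosome assembly, had 119, 128 and 90.6 CPM in the CT99021 libraries, against 104, 119.9 and 74.3 CPM in the control libraries (0.19 ± 0.074, adjusted p = 0.11). Its parent Rpl7 had 636, 620.4 and 556 CPM with both compounds, against 526, 554 and 422 CPM with GW3965, and rose there by 0.28 ± 0.061 (adjusted p = 0.0113). Rpl36al and Rpl36a encode nearly the same protein. Rpl36al rose in CT99021 against control by 0.23 ± 0.062 (adjusted p = 0.0355), while X-linked Rpl36a, at 0.12 ± 0.078, did not pass (adjusted p = 0.341) although its groups did not overlap. Under GW3965 both rose with CT99021, by 0.30 ± 0.063 (adjusted p = 0.00874) and 0.34 ± 0.079 (adjusted p = 0.014). Of the 19 alternative fits, Rpl36al passed in 7 in CT99021 against control.

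Rps4x and Rps4y2 are the X-linked small-subunit gene and a copy that the RefSeq table for GRCm38.p6 lists as Rps4l, a transcribed pseudogene. Rps4x had 776, 793 and 597 CPM with both compounds, against 649.8, 734 and 490.4 CPM with GW3965, and rose by 0.22 ± 0.059 (adjusted p = 0.0282). It passed there in 8 of the 19 alternative fits. Rps4y2 had 6.16, 4.92 and 8.83 CPM with both compounds, against 6.90, 3.96 and 7.34 CPM with GW3965 (0.12 ± 0.17, adjusted p = 0.661), and in each of the 4 groups the library numbered 2 was lowest and the one numbered 3 highest. Reads of near-identical copies can be split between rows, so the values of Rps4y2 and of the Rpl36a pair are uncertain.

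**Figure D5:**
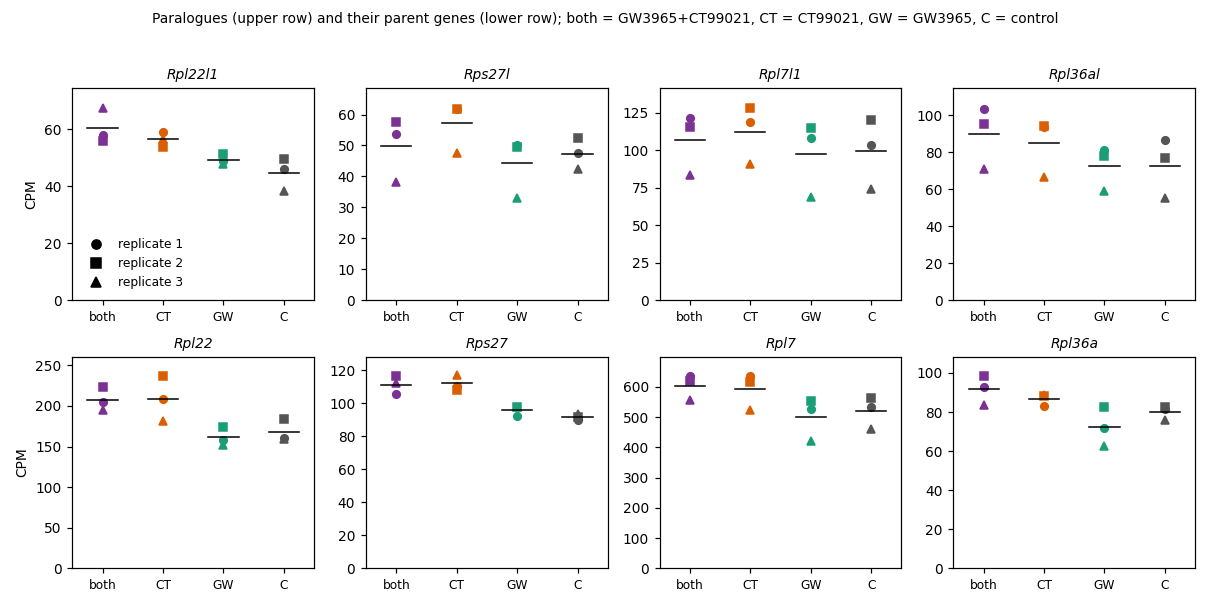
CPM of 4 paralogues (upper row) and their parent genes (lower row) in each library, by group (x axis, 3 libraries each); circles, squares and triangles are replicates 1, 2 and 3 and bars are group means. Rpl22l1 and Rpl22 are higher with CT99021, whereas Rps27l with both compounds, at a mean of 49.8 CPM, lies near the control mean of 47.4 CPM.

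The 3 members that failed the filter on low counts are paralogues with testis or muscle expression. Rpl39l, known from male germ cells, had 17 counts over the 12 libraries, Rpl3l, known from skeletal and heart muscle, had 11, and Rpl10l, a retrogene of male germ cells, had 1. Their parents were abundant. Rpl39 had 169, 168 and 161 CPM with both compounds, against 149, 149 and 133 CPM with GW3965 (0.21 ± 0.053, adjusted p = 0.0219), and Rpl3, which shapes the peptidyl transferase centre, rose there by 0.35 ± 0.075 (adjusted p = 0.0103). Of the 19 alternative fits, Rpl39 passed there in 8 and Rpl3 in 18.

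In both CT99021 against control and GW3965+CT99021 against GW3965, 9 tested members did not pass. These were Rpl7l1, Rpl22l1, Rps4y2, Rps27l and Rps19bp1, with Rps9, Rps29, Rpl29 and Rpl35a, the last 4 named after their values were seen. Each had a log2 fold change above 0 in both comparisons. Rps19bp1 had 27.9, 24.2 and 16.6 CPM with both compounds, against 22.7, 20.2 and 14.8 CPM with GW3965 (0.25 ± 0.098, adjusted p = 0.101).

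The table lists some members again under another name at the same place. Rpl26 and Gm15772, Rpl30 and Gm12191, Rps27 and Gm9846, and Rpl34 and Rpl34-ps1 lay within 100 bases of each other, and the second row held 99.9%, 98.5%, 99.1% and 98.2% of the counts of the first. They are not separate measurements. Many ribosomal protein genes host small nucleolar RNAs (snoRNAs) in their introns, and 22 of 86 members (25.6%) had a snoRNA row on the same strand within 5000 bases after the listed position, against 0.347% of tested genes.

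Gnb2l1 and Fau, ribosome components that the name rule leaves out, were also measured. Gnb2l1, the scaffold Rack1 of the small subunit, rose in CT99021 against control by 0.23 ± 0.052 (adjusted p = 0.0162). Fau, which encodes a fusion of a ubiquitin-like part with a ribosomal protein, had 0.20 ± 0.073 there and did not pass (adjusted p = 0.0922). Both rose in GW3965+CT99021 against GW3965, and Gnb2l1 did so by 0.36 ± 0.052 (adjusted p = 0.00206).

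Other mRNAs known for a pyrimidine tract at their start, chiefly translation factors, moved with the members. Of 16 such genes, 10 rose and 0 fell in CT99021 against control (8.23% of all genes rose), with a median log2 fold change of 0.20. Under GW3965 15 rose and 0 fell with CT99021 (11.8% of all genes rose), with a median of 0.31. In GW3965 against control 0 passed, with a median of -0.060. Pabpc1, the poly(A)-binding protein, had 821, 874 and 777 CPM in the CT99021 libraries, against 642, 662 and 628 CPM in the control libraries (0.35 ± 0.055, adjusted p = 0.00354). Npm1, a nucleolar chaperone of ribosome assembly, rose by 0.40 ± 0.057 (adjusted p = 0.00288), and Eef1d, an exchange factor of elongation, by 0.51 ± 0.068 (adjusted p = 0.00189). Hnrnpa1, an RNA-binding protein, did not pass, at -0.26 ± 0.14 (adjusted p = 0.222).

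Of 17 genes that control ribosomal protein mRNAs, 3 rose and 2 fell in CT99021 against control, where 8.23% of all genes rose and 7.59% fell. In GW3965+CT99021 against GW3965 3 rose and 2 fell, where 11.8% of all genes rose and 8.81% fell. With so few genes, these counts do not set the list apart from all genes. Myc had 49.8, 42.1 and 26.8 CPM in the CT99021 libraries, against 73.5, 62.0 and 39.6 CPM in the control libraries, and fell (-0.57 ± 0.15, adjusted p = 0.0294). Mycn, its relative in neural progenitors, had a log2 fold change of -0.24 ± 0.14 (adjusted p = 0.266). The mTOR partner Rptor rose by 0.34 ± 0.086 (adjusted p = 0.0261) and the cap-binding protein Eif4e by 0.25 ± 0.055 (adjusted p = 0.016). The promoter-binding factor Gabpa fell by 0.28 on the log2 scale (adjusted p = 0.0214). Larp1 had 0.38 ± 0.15 and did not pass (adjusted p = 0.119). These are mRNA levels, and protein was not measured. The part of these genes in the members' change was not tested.

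Markers of the cells in the spheres also moved. Of 8 neural progenitor markers, 6 fell and 0 rose in GW3965+CT99021 against GW3965 (8.81% of all genes fell). In CT99021 against control 4 fell and 0 rose (7.59% of all genes fell). Sox3, a progenitor transcription factor, stood at -0.96 ± 0.17 in GW3965+CT99021 against GW3965 (adjusted p = 0.00463). The summed progenitor markers ran from 2614 to 3612 CPM with both compounds, 2487 to 3549 with CT99021, 2946 to 4315 with GW3965 and 2713 to 4235 in the control. Of 6 ventral midbrain markers, 1 fell and 0 rose in GW3965+CT99021 against GW3965, and 0 passed in CT99021 against control. These markers differed more by replicate number. Shh had 118 to 181 CPM in the libraries numbered 3, against 23.4 to 29.8 CPM in all others. Foxa2 had 26.9 to 37.2 CPM there, against 4.70 to 7.96 CPM. Lmx1a was also highest there in each group, whereas En1, En2 and Otx2 were lowest. The part of this difference in the lower member levels of those libraries was not tested.

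Of 7 mesenchyme markers, 4 rose in GW3965+CT99021 against GW3965 (11.8% of all genes rose) and 1 in CT99021 against control (8.23%). Their sum ran from 931 to 3151 CPM with both compounds, 344 to 3882 with CT99021, 243 to 2549 with GW3965 and 230.0 to 2926 in the control, and no marker of this list was at 0. Erythroid, endothelial and microglial markers were detected in all groups as well, with summed levels of 2462 to 7312 CPM, 27.6 to 44.6 CPM and 7.90 to 19.0 CPM with both compounds, against 3271 to 11871, 30.6 to 42.2 and 14.9 to 28.6 CPM in the control. Of 4 tested neuron markers, Tubb3 rose and Dcx fell in CT99021 against control, Stmn2 fell in GW3965+CT99021 against control, and 0 passed in GW3965+CT99021 against GW3965. Their sum ran from 1016 to 1958 CPM with both compounds and 1162 to 1703 with CT99021, against 1338 to 1930 in the control. Of 6 tested erythroid markers, Hbb-bh1 and Hbb-y fell in GW3965+CT99021 against control, and 0 passed in CT99021 against control or in GW3965+CT99021 against GW3965. Of 4 tested endothelial markers, Kdr fell in CT99021 against control and in GW3965+CT99021 against GW3965, and of 4 tested microglial markers, Cx3cr1 fell in all 3 comparisons. No other marker of these 4 lists passed the test in these comparisons. In bulk RNA a change in the mix of cells and a change in RNA per cell cannot be told apart, and the part of these markers in the members' change was not tested.

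Ribosomal protein mRNAs are short, and 965 other tested genes with a listed length of up to 1000 bases were set beside them, a choice made after the data were seen. Their median log2 fold change was 0.068 in CT99021 against control and 0.046 in GW3965+CT99021 against GW3965, and 54 (5.60%) and 72 (7.46%) of them rose. In GW3965 against control their median was -0.066, beside -0.060 for the members. The part of transcript length in the members' change was not tested.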

How the data were processed

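RNA was sequenced from 12 libraries in 4 groups of 3. The authors deposited 1 table of raw whole-number read counts per feature, with 23965 gene rows, 1217 repeat rows and a length per row. The submitters' processing notes list Bowtie and the build mm9, with no role or version. The counting program, its use of strand and its treatment of multiply mapping reads were not given in the sources used here, so values of near-identical or overlapping genes are uncertain. Positions are as listed, in mm9, and promoter sequences are from another build and were matched by name.

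Repeat rows (0.196% to 0.643% of counts) stayed out of library totals. CPM are deposited counts divided by the library total over gene rows and a trimmed-mean (TMM) factor, and scaled to 1000000. Libraries of a group were not duplicates (chi-square per gene 28.4 to 137).

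All 12 libraries entered 1 quasi-likelihood fit in edgeR 4.0.16 (R 4.3.3) after filterByExpr, with Benjamini-Hochberg adjusted p under 0.05. The fit without a block was the fixed one. Deviations of same-numbered libraries from their group means correlated in all 18 pairs (r = 0.55 to 0.84, against -0.69 to 0.24 for different numbers), so the fit with the number as a block is given beside it. This pairing rests on the data, since the labels do not state it. The block lowered edgeR's common biological coefficient of variation to 12.7%, from 33.4%.

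DESeq2 1.42.0, other scalings, no filter and left-out libraries were alternatives. Named members were, per comparison, the 4 with the largest rise and the 4 with the largest fall past the test, the paralogues with their parents, 13 members of known use or role, and the 5 highest and 5 lowest. Members, gene lists and this rule were chosen with earlier results of these data known. The fits were also run on simulated counts with known changes. The share recovered at the size of the members' changes is not given here.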

Additional observations from a re-analysis of the deposited data

How the results depend on the processing

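Under every scaling, filter and left-out library tried, the members' median log2 fold change stayed above 0 in the 3 comparisons of a group with CT99021 against one without it (0.16 to 0.23 for CT99021 against control, 0.18 to 0.26 for GW3965+CT99021 against control, 0.23 to 0.32 for GW3965+CT99021 against GW3965), and below 0 for GW3965 against control (-0.077 to -0.041). For GW3965+CT99021 against CT99021 it took either sign (-0.011 to 0.046), and for the interaction it was 0.035 to 0.10, lowest without GW3965 replicate 3.

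In the order CT99021 against control, GW3965+CT99021 against control and GW3965+CT99021 against GW3965, members past the test numbered 0, 0 and 0 without the replicate block in edgeR, 7, 9 and 19 without it in DESeq2, and 52, 59 and 74 with the replicate block. With the block they numbered 7, 29 and 46 on library totals alone, 31, 32 and 58 with upper quartile factors, 46, 52 and 72 with DESeq2 size factors, 21, 38 and 66 with no filter, and 62, 62 and 73 in DESeq2. Without the libraries numbered 3 they were 44, 46 and 63. Without these and GW3965+CT99021 replicate 2, an alternative added after the data were seen, they were 70, 58 and 68. Leaving out 1 library gave 5 to 59 (5, 5 and 26 without control replicate 1, 2 or 3, 15 and 16 without CT99021 replicate 1 or 2, 34 and 33 without GW3965 replicate 1 or 2), 14 to 59 (14, 18 and 36 without control replicate 1, 2 or 3, 34 and 36 without GW3965+CT99021 replicate 1 or 3) and 43 to 75 (43 without GW3965 replicate 1). It gave 0 to 0 in the other comparisons and in all without the block. The share of all genes called under each scaling, filter and left-out library is not given here. These counts therefore do not show whether a gain or loss of calls was particular to the members.

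Signs turned for Rps4y2 and Rps27l, which passed no test in the main fit with the block. Rps27l passed in 4 of the 19 alternative fits in CT99021 against control, where its sign did not turn. Rps4y2 in GW3965+CT99021 against control was -0.019, -0.038, -0.055, -0.017 and -0.024 with DESeq2 size factors, library totals, upper quartile factors, no filter and DESeq2, -0.14 in the 7 libraries left above, and -0.13 to 0.090 with 1 library left out (-0.13 without control replicate 2, -0.12 without GW3965+CT99021 replicate 2, -0.017 and -0.00208 without CT99021 replicate 1 or 3, -0.00186 and -0.018 without GW3965 replicate 1 or 3). In GW3965+CT99021 against GW3965 it was -0.17 in those 7 libraries and -0.026 without GW3965 replicate 3, and in CT99021 against control -0.041 without control replicate 2. Rps27l in GW3965+CT99021 against control was -0.015 without control replicate 1. The cause was not tested. Summing rows with locus suffixes gave no value, since no member has such rows. Rps4y2, with few counts, and the 3 members under the filter are limited by depth.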
